A study of Zea mays with 27 samples.

Results

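Leaf RNA of bz2 and of mutator maize plants, each grown under the plastic filter labelled CA, was set against leaf RNA of b,pl plants under the same filter on 1 dual-colour cDNA array per genotype. These 2 arrays, chosen by their labels, are 2 of the 27 arrays of a study that compared adult maize leaves of 4 genotypes (bz2, mutator, b,pl and B,Pl) under several filters and UV-B treatments. The other arrays used for comparison held B,Pl under CA (2 arrays) and b,pl plants under another condition with the same dyes (5 arrays). These conditions were the filters LE and PE, 1 day after the PE filter was taken away, and a greenhouse with 8 h of UV-B or with none. Further arrays held bz2, mutator and B,Pl after 8 h of greenhouse UV-B (1 array each). On each of these arrays the other channel held RNA of b,pl under CA. The labels give no allele, parental line, plant number or pooling for any genotype, and they do not say what the mutator line carries.

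B and Pl are regulators that switch on anthocyanin synthesis in maize leaves, B as a basic helix-loop-helix protein and Pl as a MYB protein. The product of Bz2, a glutathione S-transferase, is required for anthocyanin to reach the vacuole, where the pigment absorbs visible and ultraviolet light. Mutator is also the name of a family of maize transposable elements. Of 12 flavonoid genes looked for, among them b1, pl1 and bz2, 0 were among the annotated cDNAs, so neither the pigment pathway nor the bz2 transcript itself could be read. Of 11 markers of leaf and meristem cell types, 2 were measured, kn1 and ocl4, and since the values are ratios, the labelled tissue could not be checked by marker levels.

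The values are log2 ratios between the channels of an array, averaged over the 3 spots of each cDNA and centred on the array's median. Each array holds 5400 cDNAs, of which 811 carry the names of 213 genes. The bz2 array had values for 5399 cDNAs and the mutator array for 5383, and 5382 were measured on both. The SD between the spots of a cDNA had a median of 0.0259 on the bz2 array and of 0.0356 on the mutator array, but spots of 1 array are technical repeats and not samples. The array titles put bz2 and mutator in Cy5, whereas the channel 2 source name ends in Cy3 on both arrays. The titles were followed, and the channel used as numerator is not given in the sources used here. A positive value therefore means more RNA in bz2 or mutator than in b,pl if the values are Cy5 over Cy3 with the dyes of the titles, and less RNA if either of these is the other way round. If the dyes of these 2 arrays alone are the other way round, their values change sign while those of the other arrays, such as bz2 and mutator at UV-B, whose dye labels agree, do not. Every comparison below with another array, including the position against the b,pl arrays, thus rests on the titles. Each array is the sole link between its genotype under CA and b,pl under CA, so the linear model cannot check its direction. Before centring, the median over cDNAs was −0.52 on the bz2 array and −0.055 on the mutator array. All values below are relative to that median, and values of the bz2 array between 0 and 0.52 were negative as deposited. In leaf RNA, fewer cells of a type and less RNA per cell cannot be told apart.

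No difference of either genotype from b,pl under CA was called in the linear model, which took its spread from the other arrays. For bz2 against b,pl, limma called 0 of 5399 cDNAs at an adjusted p under 0.05 (0%), and 28 had an unadjusted p under 0.05. For mutator against b,pl it called 0 of 5383 (0%), with 252 at an unadjusted p under 0.05. The mean of both genotypes against b,pl gave 0 of 5382 (0%), with 151 unadjusted, and bz2 against mutator 0 of 5382 (0%), with 59 unadjusted. With gene means in place of the cDNAs of named genes, 0 of 213 genes were called in any of these comparisons, and 4, 11, 8 and 1 genes had an unadjusted p under 0.05. Over all features of that fit, gene means and unnamed cDNAs together, these were 24 of 4801, 221 of 4785, 131 of 4784 and 50 of 4784. The median SE was 0.413 for either genotype against b,pl and 0.566 for bz2 against mutator, since 1 array stood for each genotype and was assumed to vary like the rest. The SD over cDNAs was 0.365 on the bz2 array and 0.504 on the mutator array, but 1.26 on b,pl PE replicate 2. The 28 cDNAs of bz2 were 0.519% of those tested, far fewer than a threshold of 0.05 passes by chance, and the 252 of mutator 4.68%. The test could thus miss differences, and 0 calls do not show that the genotypes are alike. Whether different arrays held RNA of different plants is not labelled, and the spread behind the p-values may therefore be technical. The genes below are those of smallest p, described by their values and set beside the range of the 5 arrays with b,pl under another condition. Many cDNAs fell outside that range: 33.3% of all cDNAs in bz2 and 36.1% in mutator lay outside it, 9.74% lay outside it on the same side in both. Against any 4 of the 5 arrays the share was 36.7% to 44.9% in bz2 and 37.9% to 50.2% in mutator, and 20.8% to 55% for each b,pl array against the other 4. In each of the 24 gene lists, 0 cDNAs passed in these comparisons.

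The largest shift common to both genotypes among named genes was that of PDHE1-B (LOC541705), the E1 beta subunit of pyruvate dehydrogenase, which turns pyruvate into acetyl-CoA. Its 3 cDNAs stood at −1.66, −1.06 and −1.83 on the bz2 array and at −1.65, −1.83 and −1.92 on the mutator array. The lowest and the highest of these differ by less than 1, and the spot SD ran from 0.0112 to 0.101. These 3 cDNAs were among the 6 of 5382 that lay below −1 on both arrays (0.111%). On the 5 b,pl arrays the gene mean lay between −0.09 and 0.26, above the means of −1.52 in bz2 and −1.80 in mutator. At greenhouse UV-B the gene mean was again below this range in both genotypes, at −0.77 in bz2 and −0.89 in mutator, and B,Pl at UV-B was also below it, at −0.57. In B,Pl under CA it stood at −0.23 on replicate 1 and, with the sign turned for the swapped dyes, at −0.97 on replicate 2. On b,pl PE replicate 2, with b,pl PE in Cy3, it stood at −2.44 after centring, before the sign was turned for the swapped dyes, so the gene varied widely among arrays outside this comparison. The mean of both genotypes minus b,pl was −1.59 for the gene (SE 0.48, 95% interval −2.65 to −0.52, limma adjusted p = 0.999). For the cDNA at spot 1864 it was −1.71 (SE 0.31, limma adjusted p = 0.925), and with all arrays scaled to the same spread this cDNA passed, at −1.99 (limma adjusted p = 0.0106). The cDNA at spot 9352 stood at −1.51 (SE 0.38, limma adjusted p = 0.999) and passed with scaled arrays, at −1.71 (limma adjusted p = 0.049).

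Other genes had smaller values of the same sign in both genotypes. LOC542358, with 1 cDNA, stood at −0.48 in bz2 and −0.93 in mutator, below the range of −0.38 to 1.05 on the b,pl arrays, and its mean difference from b,pl was −0.85 (SE 0.20, limma adjusted p = 0.999). AGP2 (LOC542737), an ADP-glucose pyrophosphorylase of starch synthesis, stood at −0.57 in bz2 and −0.32 in mutator, and the b,pl arrays ran from −0.34 to 0.78, so the mutator value fell within that range. LOC732725 stood at −0.52 and −0.33, below the b,pl range of 0.09 to 0.29. The 2 cDNAs of LOC542721 had means of −0.32 in bz2 and −0.72 in mutator, below the b,pl range of −0.22 to 0.85. On the positive side, csu318 (LOC541772) stood at 0.97 in bz2 and 1.42 in mutator, but the spot SD was 0.838 in bz2, only 1 spot was measured in mutator, and the b,pl arrays reached 1.04. SE1A (LOC732796) stood at 0.49 and 0.56, above the b,pl range of −0.21 to 0.47, with a spot SD of 0.372 on the mutator array. The methyl-CpG-binding domain gene mbd109 stood at 0.06 in bz2 and 0.54 in mutator. Each of these 7 genes had a limma adjusted p of 0.999 for the mean of both genotypes against b,pl. Of the 213 gene means, 69 were negative and 53 positive on both arrays, 37 were positive in bz2 and negative in mutator, and 54 the reverse.

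**Figure D1:**
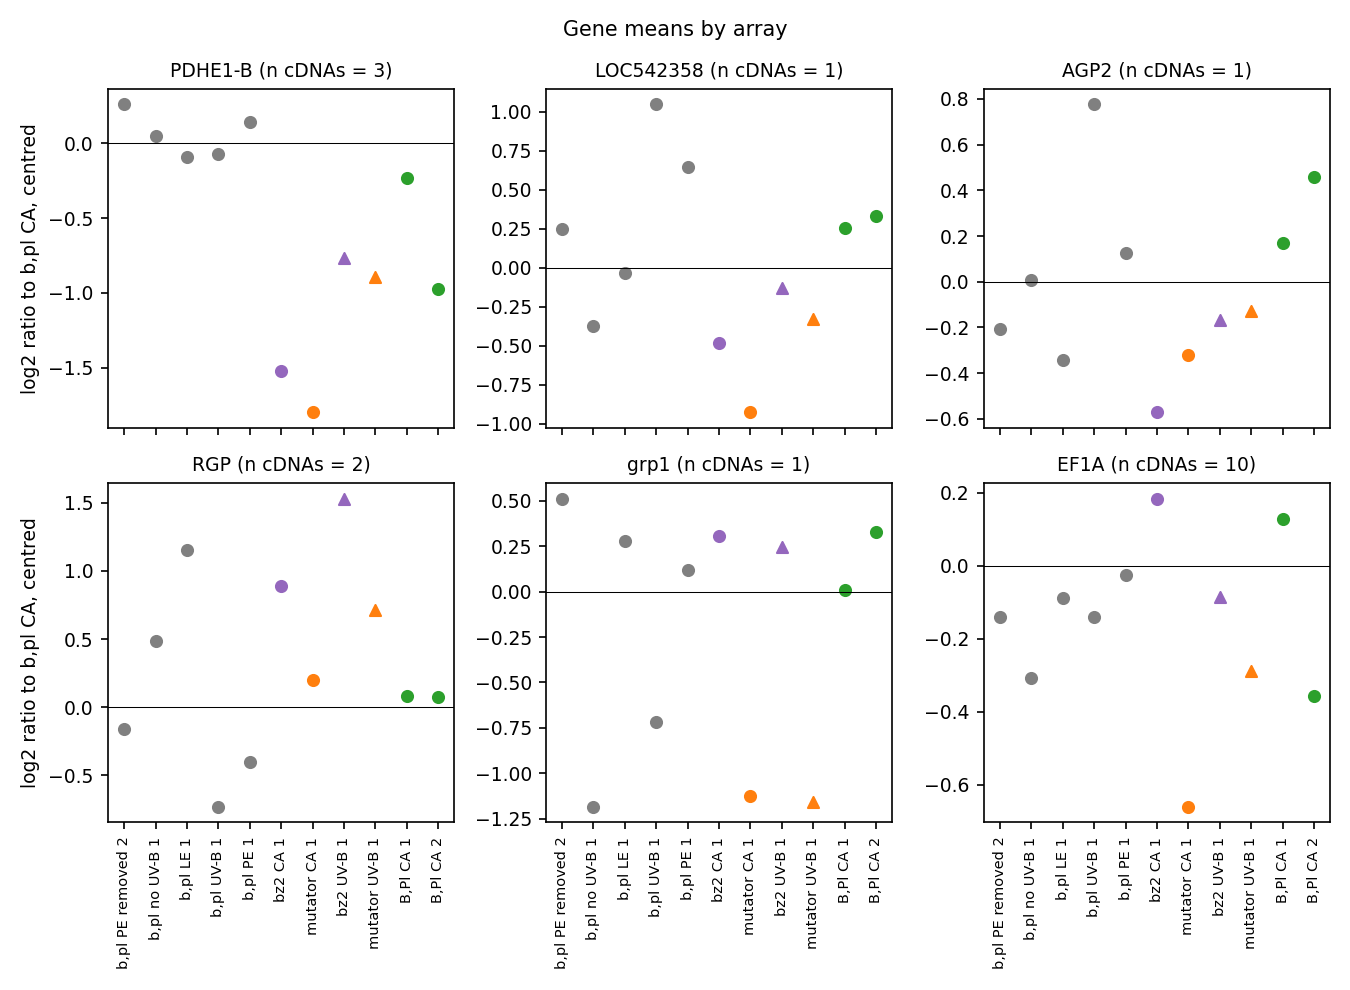
Mean log2 ratio to b,pl CA of 6 genes on each array, 1 point per array, centred on the array's median. Grey points are the 5 arrays with b,pl under another condition, purple bz2, orange mutator and green B,Pl, triangles mark bz2 and mutator at greenhouse UV-B, and the sign of B,Pl CA replicate 2 is turned for its swapped dyes. PDHE1-B lies between −0.09 and 0.26 on the grey points and at −1.52 and −1.80 under CA in bz2 and mutator, while grp1 is positive in bz2 and below −1 in mutator under both conditions.

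Over all cDNAs the arrays of bz2 and mutator were weakly related. Across the 5382 cDNAs measured on both, Pearson's r was 0.156 and Spearman's rho 0.104, and 51.1% of cDNAs had the same sign. With the dye term subtracted, r was 0.196 and rho 0.21, and 56.6% had the same sign. Both arrays share the b,pl CA group in the other channel and the dye orientation, and cDNAs are not independent of each other, so this is a description of the 2 arrays. With the sign of either array turned, r is −0.156. Across the 213 gene means r was 0.353 and rho 0.202. Over the 811 single cDNAs of these genes r was 0.144 and rho 0.038, and 48.5% had the same sign.

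Among the 269 highest cDNAs of each array, which is the highest 5%, 60 were shared, or 22.3% of each list. Among the 269 lowest, 38 were shared, or 14.1%. Another 30 were high in bz2 and low in mutator, or 11.2% of each list, and 5 were low in bz2 and high in mutator, or 1.86%. By definition, each list holds 5% of all cDNAs measured on both arrays. The last value inside the highest 5% was 0.5611 for bz2, with 0.5608 just outside, and 0.6425 for mutator, with 0.6404 outside. The last inside the lowest 5% were −0.4414 and −0.7387, with −0.4407 and −0.7377 outside. Of the 60 cDNAs high on both, 3 were named. They were the 1 cDNA of csu318, 1 of 4 of LOC542185 and 1 of 2 of the growth-regulating factor gene GRF8. Of the 38 low on both, 8 were named, among them all 3 cDNAs of PDHE1-B and the 1 cDNA each of LOC542358 and LOC542445. The others were 1 of 2 cDNAs of LOC542721, 1 of 35 of the linker histone gene hon102 and 1 of 32 of the S-adenosylmethionine synthetase gene sam2. At greenhouse UV-B the 60 cDNAs high on both had medians of −0.27 in bz2 and 0.01 in mutator, and 12 of 58 measured were positive in bz2 and 29 of 57 in mutator.

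The ends of the distribution differed in the quality of their spots. Above 1 lay 1.82% of 5399 cDNAs on the bz2 array and 1.88% of 5383 on the mutator array, and below −1 lay 0.445% and 1.95%. Of the 21 cDNAs above 1 on both arrays (0.39%), 17 lacked at least 1 spot on an array and 2 had all 3 spots on both arrays with a spot SD under 0.15, whereas all 6 cDNAs below −1 on both arrays met this condition, as did 90.3% of all cDNAs measured on both. This condition was set after the values had been seen. The 2 were unnamed cDNAs. That at spot 574 stood at 1.24 in bz2 and 1.17 in mutator, and that at spot 2971 at 1.22 and 1.41, and for both the b,pl arrays reached higher, 1.33 and 1.51. The 3 unnamed cDNAs below −1 on both began at spots 3436, 10348 and 15673. They stood at −1.18, −1.05 and −1.08 in bz2 and at −1.46, −1.18 and −1.12 in mutator, all below the b,pl arrays. With the 4859 cDNAs that met the condition, r was 0.165 and 70 cDNAs were shared among the highest and lowest 5%, against 98 over all.

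**Figure D2:**
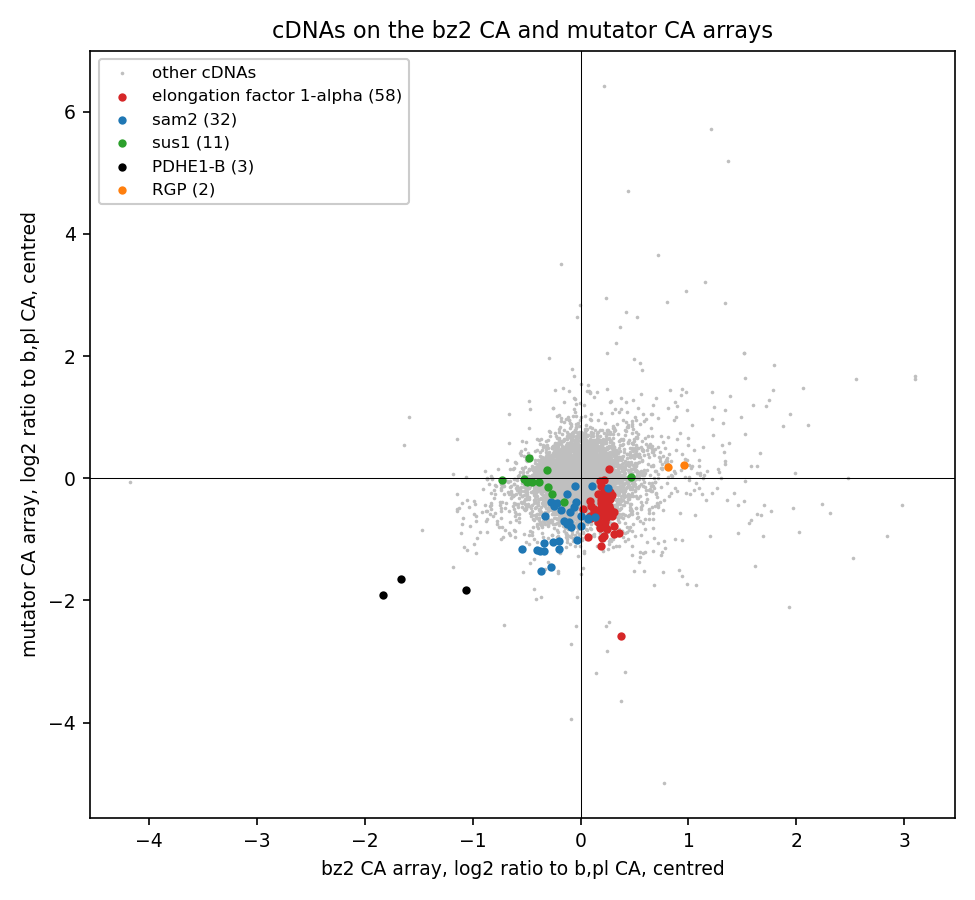
Log2 ratio to b,pl CA of each cDNA on the bz2 CA array (horizontal) and the mutator CA array (vertical), both centred, 1 point per cDNA. The 3 black PDHE1-B points lie below −1 on both axes, the 58 red elongation factor 1-alpha points are positive in bz2 and 57 of them negative in mutator, and the 2 orange RGP points are above 0.8 in bz2 and near 0.2 in mutator.

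The genes of smallest p in bz2 that were not yet described differed in how far mutator shared their values. Both cDNAs of RGP (LOC542592), a reversibly glycosylated polypeptide of cell wall polysaccharide synthesis, were positive, at 0.81 and 0.96 in bz2 and at 0.18 and 0.22 in mutator. Its difference from b,pl in bz2 was 0.95 (SE 0.33, 95% interval 0.21 to 1.68, limma adjusted p = 1), the smallest p of any gene in this comparison, and the b,pl arrays ran from −0.73 to 1.16. At UV-B the gene mean was 1.53 in bz2 and 0.71 in mutator. The histone deacetylase gene hda110 (LOC541972) stood at 0.55 in bz2 and −0.29 in mutator, and at 0.15 and −0.44 at UV-B. The gene cgs1 (LOC541650), which encodes cystathionine gamma-synthase of methionine synthesis, stood at −0.57 in bz2, below the b,pl range of 0.00 to 0.61, and at −0.16 in mutator. PP2C (LOC542176), a protein phosphatase gene with 2 cDNAs, had means of 0.41 and 0.29, inside the b,pl range of −0.73 to 1.14. Each of these 4 genes had a limma adjusted p of 1 for bz2 against b,pl. Without centring the difference was 0.51 for RGP, 0.13 for hda110, 0.19 for PP2C and −0.90 for cgs1, with the same signs. By rank, 88 cDNAs of the highest 5% in bz2 and 117 of the lowest lay between the quartiles in mutator, 32.7% and 43.5% of these lists, which is less than the share of all cDNAs that lies there by definition. They included the 3 cDNAs of LOC541999, from 0.76 to 1.08 in bz2 and from 0.08 to 0.16 in mutator, and 4 of the 11 cDNAs of sus1, a sucrose synthase gene.

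In mutator, grp1 (LOC542725), with 1 cDNA, stood at −1.13, against 0.30 in bz2. The spot SD was 0.0409 and 0.029. At greenhouse UV-B the values were nearly the same, −1.16 in mutator and 0.24 in bz2, but 1 of the b,pl arrays, that of greenhouse plants without UV-B, had −1.18, b,pl UV-B replicate 1 had −0.72, and B,Pl at UV-B had −1.35, lower than mutator. The difference of mutator from b,pl was −1.39 (SE 0.43, limma adjusted p = 1). The translation initiation factor gene tif1 (LOC541664) stood at −1.98 in mutator and −0.41 in bz2. The b,pl arrays ran from −1.10 to −0.24 for tif1, and at UV-B it was 0.01 in mutator and 0.91 in bz2. The 4 cDNAs of ANT2 (LOC542389), a mitochondrial ADP/ATP carrier, lay between −1.11 and −0.09 in mutator and between 0.10 and 0.24 in bz2. The mutator mean of −0.54 lay within the b,pl range of −0.60 to 0.50. LOC542625 stood at −0.74 in mutator and −0.06 in bz2. Each of these 4 genes had a limma adjusted p of 1 for mutator against b,pl. By rank, 116 cDNAs of the highest 5% in mutator and 84 of the lowest lay between the quartiles in bz2, 43.1% and 31.2% of these lists and again less than the share of all cDNAs, and the low ones included 4 of the 32 cDNAs of sam2.

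Genes with 10 or more cDNAs gave several readings on the same array, although cDNAs of a gene and of close family members cross-hybridise and share their RNA. The 3 elongation factor 1-alpha genes, whose protein carries aminoacyl-tRNA to the ribosome, showed the clearest contrast. Of 58 cDNAs, 58 were positive in bz2, from 0.03 to 0.37, and 57 were negative in mutator, from −2.58 to 0.15. The medians were 0.22 and −0.49, against 0 for all cDNAs on each array. The lowest value, of an EF1A cDNA at spot 12244, came from 2 spots with an SD of 2.36. The 35 cDNAs of elfa3 had medians of 0.22 and −0.45, the 13 of elfa2 0.22 and −0.55, and the 10 of EF1A 0.20 and −0.45. In the linear model, which takes off a dye term with a median of 0.14 over these cDNAs, the median was 0.06 in bz2, with 45 of 58 positive, and −0.56 in mutator, with 57 negative. Without centring the bz2 median was −0.30. On the 5 b,pl arrays the median of the 58 cDNAs lay between −0.23 and 0.11, and in B,Pl under CA it was 0.26 on replicate 1 and −0.19 on replicate 2. Low values were not particular to mutator. B,Pl at greenhouse UV-B had gene means of −0.91 for elfa3, −1.08 for elfa2 and −0.73 for EF1A. These were lower than the mutator means under CA of −0.46, −0.59 and −0.66.

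Of the genes of S-adenosylmethionine and inositol phosphate synthesis, sam2 stayed low in mutator when the dye term was taken off, and INO1 was then close to the median. Of the 32 cDNAs of sam2 (LOC542733), 32 were negative in mutator, with a median of −0.69, and 26 in bz2, with a median of −0.14. Those of INO1 (LOC542540), which makes inositol phosphate, had medians of −0.34 in mutator, with 19 of 19 negative, and −0.21 in bz2, with 18 negative. The dye term matters most for this list, with a median of −0.23. In the linear model the 51 cDNAs had a median of −0.33 in mutator, with 8 positive, and of 0.07 in bz2, with 32 positive, so the bz2 sign depends on that term. For sam2 alone the fitted mutator median was −0.50, with 1 of 32 positive, and for INO1 −0.05, with 7 of 19 positive. The median of the list on the 5 b,pl arrays ran from −0.65 to 0.65, a range that held the medians of both genotypes on their arrays. For sam2 alone the b,pl medians ran from −0.52 to 0.63, so its mutator median of −0.69 lay below them. For INO1 they ran from −1.32 to 1.63, which held the medians of both genotypes. The gene csu503(met) had a median of 0.34 in bz2, with 20 of 21 cDNAs positive, and of −0.24 in mutator, with 19 negative. The b,pl arrays had medians of −1.50 to −0.19, below the bz2 median and on both sides of that of mutator. The ADP/ATP carrier gene ANT1 had a median of 0.16 in bz2, with 12 of 12 positive, and −0.40 in mutator, with 9 negative, and in the linear model the bz2 median was 0.01.

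The lists of HSP70, tubulin and linker histone genes had medians closer to that of all cDNAs in mutator than in bz2. The 43 cDNAs of the HSP70 chaperone genes hsp70-4 and hsp70-5 had a median of 0.18 in bz2, with 43 positive, and of 0.05 in mutator, with 23 positive. The b,pl arrays ran from −0.26 to 0.59 for this median, so the bz2 value fell within their range. In the linear model the HSP70 median was 0.25 in bz2, with 42 of 43 positive, and 0.12 in mutator, with 28 positive. The 117 tubulin cDNAs of 7 genes, the subunits of microtubules, had a median of −0.17 in bz2, with 102 negative, and of 0.02 in mutator, with 55 negative. Of these, tua4 had medians of −0.17 and 0.02 over 57 cDNAs, TUA1 −0.14 and −0.03 over 30, and tua3 −0.15 and −0.06 over 16. The 63 cDNAs of linker histones H1, which bind DNA between nucleosomes, had medians of −0.16 in bz2 and 0.05 in mutator. Among them hon102 stood at −0.26 and 0.04, hon101 at −0.22 and 0.08, and his1 at 0.04 and 0.13. The high-mobility-group gene nfd101 had a median of −0.03 in bz2 and 0.26 in mutator, with 13 of 19 positive in the latter. For sus1, the sucrose synthase gene, the median was −0.39 in bz2, with 10 of 11 negative, and −0.06 in mutator. The glycolytic gene gpc1 had −0.04 and −0.24 and the homeobox gene kn1, which keeps meristem cells undifferentiated, −0.13 and 0.10. The epidermal marker ocl4 had 0.20 in bz2 and 0.09 in mutator.

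Shorter lists showed the same spread of small values. The 15 cDNAs of ribosomal proteins had medians of 0.24 in bz2, with 14 positive, and 0.27 in mutator, with 13 positive. It was the one list of 10 or more cDNAs with a median above 0.1 on both arrays. In the linear model its medians were 0.16 in bz2, with 12 positive, and 0.30 in mutator, with 9 positive. There the HSP70 list was also above 0.1 in both genotypes. Within the ribosomal list the 7 cDNAs of RP-P0 ran from 0.05 to 0.48 in bz2 and from 0.06 to 0.95 in mutator. The 12 cDNAs of alcohol, pyruvate and malate dehydrogenases had medians of −0.20 and −0.40, and PDHE1-B gave 3 of them. The 17 aquaporin cDNAs, water channels, had −0.23 and −0.16. The 13 cDNAs of growth-regulating factors and their partners had −0.13 in bz2, with 11 negative, and 0.08 in mutator, with 9 positive. The 18 cDNAs of glutathione and detoxification genes, the class to which Bz2 belongs, had −0.05 and −0.04, close to the median of all cDNAs. The 25 cDNAs of mitochondrial membrane proteins had 0.12 and −0.30 and the 12 of translation initiation factors 0.00 and −0.35.

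**Figure D3:**
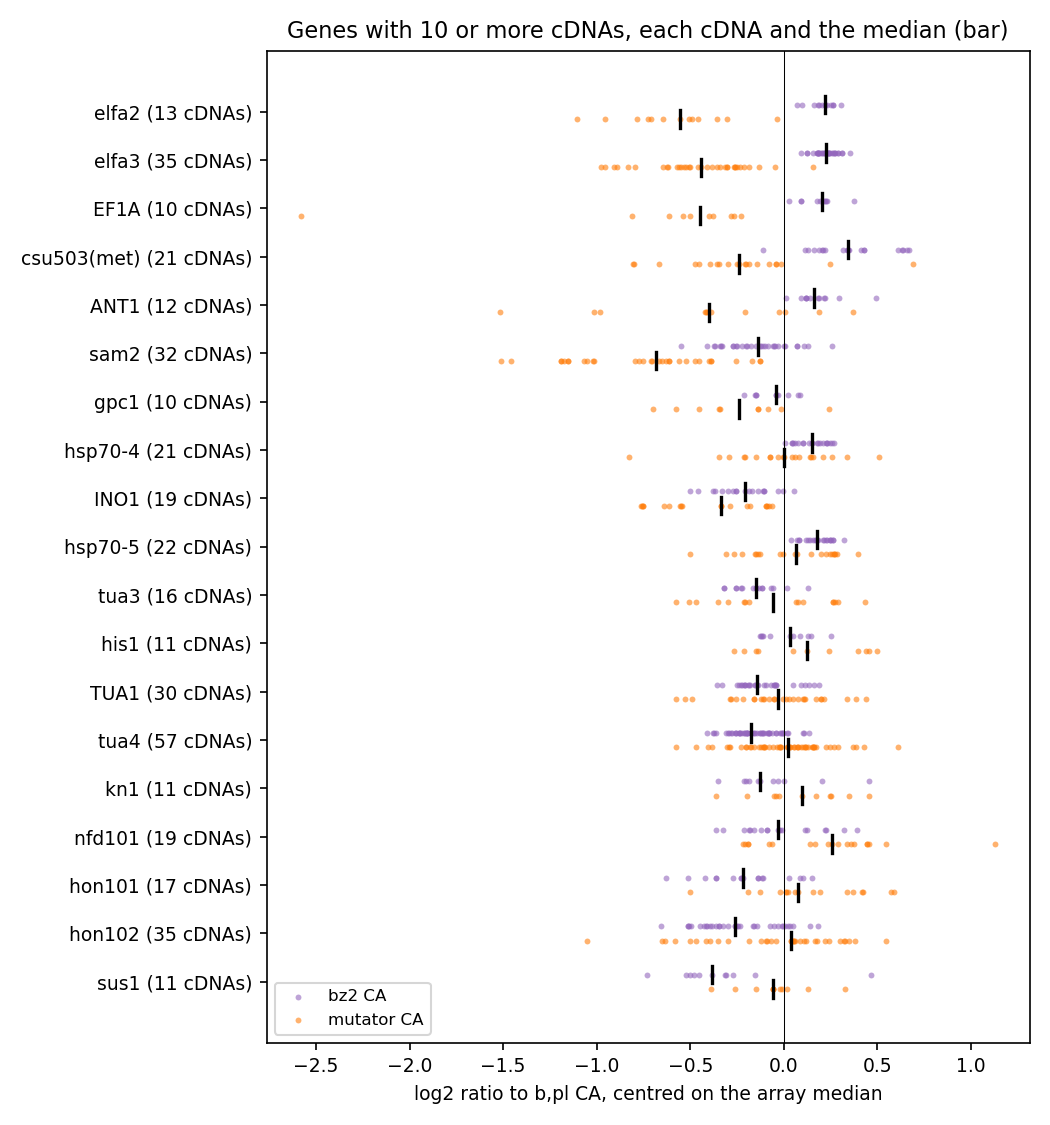
Log2 ratio to b,pl CA of every cDNA of the 19 genes with 10 or more cDNAs, 1 point per cDNA, purple for the bz2 CA array and orange for the mutator CA array, with the median of each as a black bar. Genes are ordered by the difference of the medians. The elongation factor genes at the top have bz2 medians of 0.20 to 0.22 and mutator medians of −0.55 to −0.45, and sus1 at the foot has −0.39 and −0.06.

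Bz2 minus mutator under CA takes off the b,pl CA group and the dye term, which both arrays share. Whether both arrays held the same b,pl CA RNA is not labelled, so differences between control samples may remain in it. All 58 elongation factor 1-alpha cDNAs were positive in this difference, with a median of 0.67 and a range of 0.11 to 2.95, while 49.5% of all cDNAs were positive. For sam2 the median was 0.62, with 32 of 32 positive, for csu503(met) 0.55, with 19 of 21, and for ANT1 0.53, with 11 of 12. Among genes with 10 or more cDNAs, the lowest medians were those of sus1 (−0.39), hon101 (−0.39, 15 of 17 negative), nfd101 (−0.38) and hon102 (−0.32). Those of his1, tua4, kn1, TUA1 and tua3 were also negative, from −0.24 to −0.05. At the level of gene means, grp1 had the smallest p, at 1.43 (SE 0.59, 95% interval 0.13 to 2.73, limma adjusted p = 1). EF1A stood at 0.84, the cytosolic malate dehydrogenase gene CYTMDH at 0.95, hda110 at 0.84, elfa2 at 0.79, the homeobox gene ocl5 at 0.70, ANT2 at 0.69 and tif1 at 1.57. LOC542657 stood at −0.55 and LOC541998 at −0.47. All 10 had a limma adjusted p of 1. Without centring the values of 8 of these genes moved by over 1.5 times with no change of sign, such as EF1A at 0.38 and LOC542657 at −1.01.

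The same difference was measured on a separate pair of arrays at greenhouse UV-B. There the b,pl CA group and the dye term also cancel, with the same limit on the control RNA. Across 5366 cDNAs the difference under CA and that at UV-B had a Pearson's r of 0.349 and a Spearman's rho of 0.475, and 68.1% of cDNAs had the same sign. Of the cDNAs with the highest 5% of differences under CA, 217 of 266 were positive at UV-B, with a median of 0.59 against 1.19 under CA. Of the lowest 5%, 218 of 265 were negative at UV-B, with a median of −0.38 against −0.83. Over gene means r was 0.628 and rho 0.593, with n = 213. With both CA arrays turned and the UV-B arrays kept, r would be −0.349 over cDNAs and −0.628 over genes, and 31.9% of cDNAs would have the same sign, so this relation and the signs kept at UV-B rest on the dyes of the titles. These are descriptions over cDNAs and genes that share libraries, from 1 array per genotype and condition. The 10 genes of smallest p under CA kept their sign at UV-B, as did 70.9% of the 213 gene means. The value for grp1 was 1.40, that for tif1 0.90 and that for EF1A 0.20. The elongation factor list had a median of 0.39 at UV-B with 52 of 58 positive, and csu503(met) one of 0.60 with 19 of 21. Other lists had the opposite sign there. HSP70 stood at 0.13 under CA and at −0.41 at UV-B, with 40 of 43 cDNAs negative, tubulins at −0.15 and 0.17, with 87 of 117 positive, and linker histones at −0.32 and 0.16, with 40 of 63 positive. The change of the difference between CA and UV-B was called by limma for 1 of 5366 cDNAs (0.0186%), with 35 at an unadjusted p under 0.05. It was an unnamed cDNA at spot 3049. This cDNA stood at 0.02 in bz2 and −0.05 in mutator under CA, and at 4.57 and 0.30 at UV-B, a change of −4.19 (SE 0.50, limma adjusted p = 0.0349). The call was lost in 15 of 23 fits without 1 array, and these arrays were B,Pl under CA (replicates 1 and 2), B,Pl PE (1, 2 and 3), B,Pl PE removed (1 and 2), b,pl LE, PE and UV-B (1 and 2 each) and bz2 LE (1 and 2). With both CA arrays turned, an alternative chosen after seeing the data, the change was −4.34 (limma adjusted p = 0.0254).

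**Figure D4:**
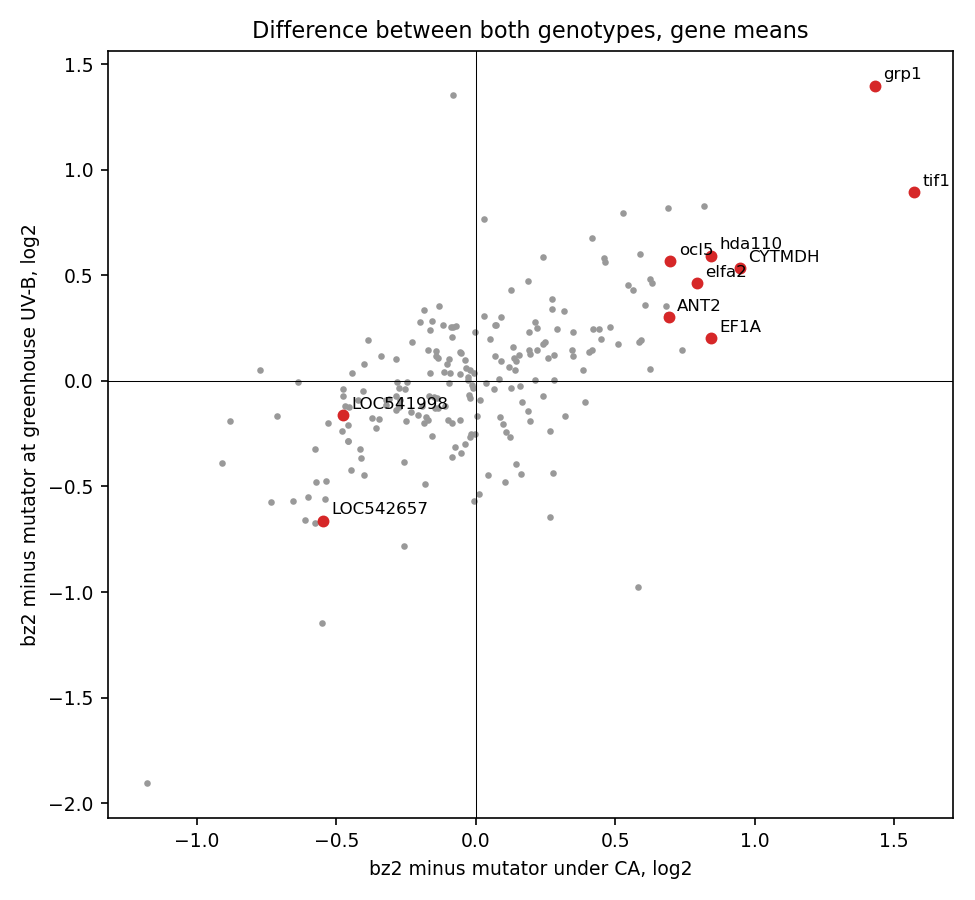
Bz2 minus mutator (log2, gene means) under CA (horizontal) and at greenhouse UV-B (vertical), 1 point per gene for 213 genes. The 10 genes of smallest p under CA are red and named. All of them lie in the quadrants of equal sign, as do 70.9% of all 213 genes, and grp1 is at 1.43 and 1.40.

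Among unnamed cDNAs, 4 of the 5 with the smallest p in mutator were below −1 there under both conditions and far closer to the median in bz2. Those at spots 10048, 5998, 8104 and 8038 stood at −3.65, −3.19, −3.18 and −2.41 in mutator under CA and at 0.38, 0.14, 0.41 and −0.04 in bz2. At UV-B they stood at −3.27, −2.85, −2.46 and −1.51 in mutator and at −0.37, −0.03, −0.59 and −0.45 in bz2. The b,pl arrays went no lower than −0.33, −0.22 and −0.95 for the cDNAs at spots 10048, 8104 and 8038, but also lay well below −1 for that at spot 5998. Against b,pl the first was −4.35 (SE 0.78, limma adjusted p = 0.533), the others −3.44, −3.67 and −2.75. The cDNA at spot 8068 stood at 5.20 in mutator from 1 spot. In bz2 the cDNAs at spots 3460, 2890 and 487 stood at 1.28, 1.14 and 0.97, against 0.15, 0.00 and 0.31 in mutator, and at UV-B at 1.59, 1.49 and 0.53 in bz2. Those at spots 2890 and 487 stood at 0.31 and 0.39 in mutator at UV-B. For these cDNAs the b,pl arrays reached 0.79 and 0.64, the latter above the bz2 value at UV-B. That at spot 16192 stood at 1.67, with a spot SD of 1.07. For both genotypes together the cDNA at spot 3436 had the smallest p among unnamed cDNAs, at −1.20 (SE 0.23, limma adjusted p = 0.925), and those at spots 6613 and 5899 stood at −0.93 and −0.95. For bz2 against mutator the cDNAs at spots 3949 and 15070 stood at 1.75 and 1.41 (limma adjusted p = 1).

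Set against B,Pl under CA, which also shares the b,pl CA channel, the mean of bz2 and mutator gave 0 of 5382 calls in limma (0%) and 139 at an unadjusted p under 0.05. PDHE1-B stood at −1.26 in this comparison (SE 0.63, limma adjusted p = 0.935). The elongation factor list had a fitted median of 0.00 in B,Pl against b,pl, 0.06 in bz2 and −0.56 in mutator, all from the same fit.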

How the data were processed

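The 27 cDNA arrays carried leaf RNA of adult maize in both colours. Each deposited value is a log2 ratio between channels at 1 spot. Base 2 was inferred: among values beyond 2 in size, 16.3% gave whole numbers as powers of 2 (tolerance 1e-04) and 0.0751% as powers of e. The sources used here do not give the scanner, the background correction, the normalisation or the numerator. The number of arrays limits the precision.

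Consecutive triplicates of the 16200 spots were averaged (median spot SD 0.0259 and 0.0356, against 0.143 and 0.186 for triplicates shifted by 1 spot), giving 5400 cDNAs, before the median of the array was subtracted. GEO's platform annotation, which can be old, gave 1 symbol for 811 cDNAs and none for 4589. Of the 213 genes, 208 matched RefSeq's table for Zm-B73-REFERENCE-NAM-5.0, and short names are synonyms from it. No coordinates or sequences were used.

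A linear model with 19 terms (a dye term, and 18 groups against b,pl CA) was fitted per cDNA over the arrays that measured it, which left 8 residual degrees of freedom. Variances were shrunk with limma 3.58.1 (R 4.3.3), which added 2.42. On 4651 complete cDNAs, 0 differed from lmFit in t by over 1e-08. Adjusted p-values are Benjamini and Hochberg's over all cDNAs, or over at most 4801 features where cDNAs of a gene were averaged, two-sided, with a threshold of 0.05. Values were read by dye (median residual variance 0.168, against 0.216 read as group over other channel). The b,pl CA channel served as control, so its own spread is left out, and comparisons that share it are not independent. The fit was tested on simulated data.

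Named genes are, per comparison, passing cDNAs or, with fewer than 10 of these, the 10 genes of smallest p, plus the 5 unnamed cDNAs of smallest p and every gene with 10 or more cDNAs. Genes named from the rank classes and lists were chosen after their values were seen. The arrays, lists and rules were chosen with earlier results of these data known.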

Additional observations from a re-analysis of the deposited data

Results flagged for a closer look

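The difference of bz2 from mutator changed between the CA filter and greenhouse UV-B for the unnamed cDNA at spot 3049, by −4.191 (SE 0.50, limma adjusted p = 0.0349 over 5366 cDNAs). This test of the difference itself picked it out. Its values under CA were 0.02 in bz2 and −0.05 in mutator, and the value that stood apart was that of bz2 at UV-B, 4.57, on 1 array. The spot SD under CA was 0.0167 in bz2 and 0.0284 in mutator. The 5 arrays of b,pl under another condition ran from −0.36 to −0.01. The annotation gives no gene for it.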

How the results depend on the processing

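The counts of 0 called cDNAs for mutator against b,pl, bz2 against mutator and both genotypes against B,Pl, and of 0 called genes for bz2 against b,pl, mutator against b,pl and bz2 against mutator, were 0 under each alternative run, including the 25 fits without 1 other array. With arrays scaled to the same spread, 1 cDNA was called for bz2 against b,pl and 3 for the mean of both against b,pl, of which 1 and 2 were PDHE1-B. The 1 call for the change between CA and UV-B was 2 with scaled arrays and 0 without centring, without a dye term, read as group over other channel and without both other arrays of conflicting dye labels, and it ran from 0 to 1 in the 23 fits without 1 array (0 in 15 of them). Gene calls for the mean of both genotypes were not run under the alternatives. With the sign of the bz2 array turned, the correlation of both arrays was −0.156, against 0.156, and it ran from 0.145 to 0.196 under the other alternatives. The 98 shared cDNAs were 17 in the highest and lowest 1% and 233 in those of 10%. Over 60 named values and up to 33 alternatives, 1975 values kept their direction and side of the threshold, and the lowest limma adjusted p was 0.0667, for spot 10048 in mutator without b,pl PE removed replicate 1. Turning the CA arrays, which would reverse these values, was not among these alternatives. Each CA array is the only link of its genotype to b,pl. Leaving out another array therefore moves the fitted value of a genotype only through the dye term, and bz2 minus mutator not at all. In those fits the direction was thus largely fixed in advance. Without centring, 8 of 19 gene medians and 7 of 24 list medians changed sign on the bz2 array and 3 and 3 on the mutator array. With the dye term, 3 and 6 changed sign on the bz2 array and 1 and 1 on the mutator array. No paired analysis was possible because each genotype had 1 array under CA.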
